A study of Mus musculus with 6 samples.

Results

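The genes described here are 9 genes of prostaglandin synthesis, nitric oxide synthesis and the acute-phase response, chosen by symbol from a table of 31097 rows: Ptgs1, Ptgs2, Ptges, Ptgis, Hpgd, Nos2, Lcn2, Saa3 and Ptx3. Of the 9, 8 had a row of their own, 7 were above 0 in a library, and those 7 passed the filter on low values, a mean of at least 0.5 FPKM over all libraries. Ptgs1, one of the cyclooxygenase genes, was not analysed here, and Hpgd was listed at 0 in every library. They were measured by RNA sequencing in 3 WT and 3 SWELL1 KO libraries of 3T3-F442A, a mouse preadipocyte line that the labels call an adipocyte line. In the KO libraries the SWELL1 gene (Lrrc8a), whose protein is part of the volume-regulated anion channel, had been targeted with CRISPR/Cas9 in the parental line, and the WT libraries have SWELL1 intact. All cells were grown in RPMI with fetal bovine serum and their RNA was isolated with TRIZOL. The labels call the libraries of a group biological replicates, without saying that they came from separate cultures, so p-values cover the spread among these libraries alone, which may be technical. The series text speaks of KO lines in the plural, but no label says which library came from which line or clone, whether the cells were differentiated, or what the mark D3 in the KO sample names alone stands for, so genotype, clone and that mark cannot be told apart. In bulk RNA, fewer cells of a type and less RNA per cell cannot be told apart either.

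As background, cyclooxygenases turn arachidonic acid, released from membranes by phospholipase A2, into prostaglandin H2, which terminal synthases convert to single prostanoids: PTGES makes prostaglandin E2 and PTGIS makes prostacyclin. HPGD inactivates prostaglandins. NOS2, the inducible nitric oxide synthase, makes nitric oxide from arginine and needs the cofactor tetrahydrobiopterin. LCN2 (lipocalin 2, which binds bacterial siderophores), SAA3 (a serum amyloid A made outside the liver) and PTX3 (a long pentraxin of innate immunity and of hyaluronan-rich matrix) are secreted by stromal cells. Ptgs2, Nos2, Lcn2, Saa3 and Ptx3 are known as genes induced by inflammatory cytokines through NF-kappaB and C/EBP transcription factors, in mouse fibroblasts among other cells.

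The stretches before the start of 4 of these genes are shown because each holds a match to the core of the C/EBP motif, TTGCNNAA, read on either strand (in capitals; in Saa3 the 8 letters printed hold the motif on the opposite strand, and so in Ptx3). They are from RefSeq's promoter table (GRCm38.p6), read 5′ to 3′ along the gene, and end at the base before RefSeq's start. The gene spans given below are from another annotation, whose starts can differ. By those spans the Lcn2 stretch with its match lies inside the gene, and so does the end of the Saa3 stretch.
Ptgs2, chr1:150099911-150100030, plus strand: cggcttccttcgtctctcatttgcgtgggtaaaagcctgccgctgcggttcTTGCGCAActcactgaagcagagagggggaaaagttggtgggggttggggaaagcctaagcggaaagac
Lcn2, chr2:32387740-32387965, minus strand: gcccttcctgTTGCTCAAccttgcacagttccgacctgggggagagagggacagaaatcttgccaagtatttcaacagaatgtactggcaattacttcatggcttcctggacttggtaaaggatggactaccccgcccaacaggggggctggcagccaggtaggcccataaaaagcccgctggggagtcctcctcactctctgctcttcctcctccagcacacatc
Saa3, chr7:46715677-46715796, minus strand: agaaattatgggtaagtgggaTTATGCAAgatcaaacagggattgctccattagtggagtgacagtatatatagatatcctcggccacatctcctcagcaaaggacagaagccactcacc
Ptx3, chr3:66219767-66219886, plus strand: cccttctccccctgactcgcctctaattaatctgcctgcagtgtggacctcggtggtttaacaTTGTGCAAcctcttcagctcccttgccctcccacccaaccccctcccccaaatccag
Counted back from the start, the match lay at bases -69 to -62 in Ptgs2, -57 to -50 in Ptx3, -99 to -92 in Saa3 and -216 to -209 in Lcn2. The table held 7 of the 9 genes, without Ptgis and Nos2. Within 250 bases before the start, 4 of those 7 had a C/EBP match, and Ptgs1, Ptges and Hpgd had none. The same match was found in 9.56% of all 32851 promoters of that length in the table. The NF-kappaB consensus (3.9% of promoters), the STAT motif TTCNNNGAA (7.02%), the AP-1 motif TGANTCA (6.75%), the core of the cyclic AMP element, TGACG, (17.8%) and the TATA box TATAAA (12.4%), also searched on both strands, had no match in these 7 windows. A match or its lack describes these letters only.

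The WT libraries held an estimated 17.1 to 20.9 M fragments and the KO libraries 18.4 to 26.1 M. AC166252.2, a row named after a clone, made up 16.7% to 23.7% of summed FPKM in the KO group but no more than 2.1% in the WT group. The row that holds Lrrc8a is shared with Nup188 and Phyhd1, stood at 32.5, 35.0 and 33.2 FPKM in WT and 28.8, 28 and 27.3 in KO, and does not check the knockout. All 11 fibroblast and preadipocyte markers reached 1 FPKM, with a summed level of 8673 to 9524 FPKM in WT and 9175 to 9247 in KO. That sum joins opposite changes: by the limma fit 6 of the 11 fell and 5 rose, with Lum 3.79-fold and Thy1 2.01-fold lower and Fn1 1.97-fold higher in KO. Of 10 adipocyte markers 9 had a row, with a summed level of 143 to 203 FPKM in WT and 14.1 to 15.6 in KO. Most of the WT sum was Fabp4, at 188, 156 and 133 FPKM in WT but 2.45, 3.48 and 4.37 in KO. Most of the KO sum was Lipe, at 7.01 ± 0.757 FPKM in WT and 6.22 ± 0.536 in KO, and Plin4, at 0, 1.74 and 0 FPKM in WT and 5.04, 5.21 and 5.06 in KO. Of the 6 adipocyte markers tested 4 fell, Plin4 rose and Lipe did not pass. Adipoq was at 1.87 FPKM or less in every library and Lep was listed at 0 throughout. Macrophage markers summed to 1.32 to 1.66 FPKM in WT and 0.184 to 0.465 in KO, with Csf1r at 0 in all libraries and Ptprc at 0 in WT and at most 0.0204 in KO. Nearly all of the WT sum was Lyz2, at 1.29, 1.64 and 1.61 FPKM in WT and 0.317, 0.101 and 0.0948 in KO. Lyz2 was the only macrophage marker tested and fell, while Mrc1, untested, was at most 0.0213 FPKM in WT and at least 0.0566 in KO. Neutrophil and mast cell markers summed to 5.78 to 9.4 and 2.35 to 3.1 FPKM, nearly all of it S100a8, with Mpo, Ltf and Kit at 0 throughout. Endothelial markers summed to 0.477 to 0.659 and 2.1 to 2.45 FPKM with Kdr at or near 0. That sum was mostly Vwf, the only endothelial marker tested, which rose 4.08-fold from 0.418 ± 0.0905 to 1.71 ± 0.0163 FPKM (adjusted p = 0.000186). Cdh5, untested, reached no more than 0.0145 FPKM across WT libraries but 0.271 or more across KO libraries, while the groups of Pecam1 overlapped. Epithelial markers summed to 4.41 to 4.5 and 1.69 to 1.89 FPKM with Epcam at 0. The epithelial sum was mostly Krt7 in WT, at 4.35 ± 0.136 FPKM against 0.33 ± 0.171 in KO, and mostly Krt8 in KO, at 1.49, 1.17 and 1.3 FPKM against 0 in all WT libraries. Hepatocyte markers were at 0 in WT and reached 0.0381 FPKM in KO. The part of these markers in the results was not tested.

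Of the prostaglandin genes, Ptgs2 and Ptgis were lower in the KO libraries and the WT and KO values of Ptges overlapped. Values are FPKM, a level per length of transcript, so levels of different genes can be set side by side. The genes were chosen with their KO and WT values known, so their values are a description and no p-value is attached to them. Ptgs2, the inducible cyclooxygenase gene (GRCm38, chromosome 1, 150100031 to 150108227), stood at 44.5, 46.6 and 54.9 FPKM in the WT libraries, given here and throughout in the order of replicates 1, 2 and 3, against 7.38, 8.71 and 16 in the KO libraries. The groups did not overlap, and KO replicate 3 stood above the other KO libraries. The means were 48.7 ± 5.49 and 10.7 ± 4.64 FPKM (SD, n = 3), a ratio of 0.22 and a log2 difference of -2.21 (SE 0.28) on log2(FPKM + 0.5). Without KO replicate 3 that difference was -2.52, and over all fits that left out 1 library it lay between -2.52 and -1.99.

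Ptgis, the prostacyclin synthase gene (chromosome 2, 167191805 to 167240604), stood at 58.3, 56.3 and 56.1 FPKM in WT libraries against 16.2, 16.3 and 16.4 in KO libraries. The libraries of each group lay close together and far from the other group. The mean was 56.9 ± 1.24 FPKM in WT and 16.3 ± 0.128 FPKM in KO, 28.7% of the WT level (log2 difference -1.77, SE 0.03). The antisense genes Gm14291 and 1110018N20Rik overlap Ptgis. Ptges, the microsomal prostaglandin E synthase gene (chromosome 2, 30889471 to 30929863), stood at 152, 149 and 132 FPKM in WT libraries against 127, 132 and 124 in KO libraries. The groups overlapped, by the lowest WT and the highest KO library, which differed by less than the SD of either group. Its log2 difference was -0.17 (SE 0.06), and 0.029 under quantile normalization, where its sign changed. In KO libraries Ptges had the highest level of these prostaglandin genes, at 128 ± 4.38 FPKM, and so in WT, at 144 ± 10.6 FPKM.

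Nos2, the inducible nitric oxide synthase gene (chromosome 11, 78920787 to 78960254), stood at 17.0, 16.3 and 16.2 FPKM in WT libraries against 0.296, 0.164 and 0.167 in KO libraries. Every KO library was near 0, and no library was at 0. The mean in KO, 0.209 ± 0.0753 FPKM, was 1.27% of the WT mean of 16.5 ± 0.431 FPKM. The log2 difference was -4.59 (SE 0.09). Because the KO level lies below the pseudocount, that difference moved with it, to -5.77 with a pseudocount of 0.1 and -3.86 with a pseudocount of 1.

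The acute-phase genes differed among themselves. Ptx3 (chromosome 3, 66219910 to 66225805) stood at 410, 404 and 398 FPKM in WT libraries against 10.9, 12.3 and 15.3 in KO libraries. It went from the 169th highest mean of all rows in WT to the 4480th in KO, with means of 404 ± 5.81 and 12.8 ± 2.22 FPKM and a log2 difference of -4.94 (SE 0.12). Ptx3 lies inside the span of Veph1 on the other strand. The sources used here do not say whether reads kept their strand, and Veph1 was at 0.222 to 0.331 FPKM in WT and at most 0.0339 in KO.

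Lcn2 (chromosome 2, 32384633 to 32388252) stood at 79.1, 71.9 and 70.8 FPKM in WT libraries against 10.9, 11.9 and 14.6 in KO libraries. All KO libraries lay well under all WT libraries, with means of 73.9 ± 4.52 and 12.5 ± 1.94 FPKM and a log2 difference of -2.53 (SE 0.11). Saa3 (chromosome 7, 46711998 to 46715700) stood at 34.5, 27.3 and 24.1 FPKM in WT libraries against 18.8, 21.8 and 28.8 in KO libraries. Its groups overlapped, with KO replicate 3 above WT replicates 2 and 3. The means were 28.7 ± 5.31 and 23.1 ± 5.16 FPKM, and the log2 difference of -0.31 (SE 0.20) ran from -0.48 to -0.17 when 1 library was left out. Saa3 has close paralogs, and reads shared with them could have been split in the authors' counting.

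**Figure D1:**
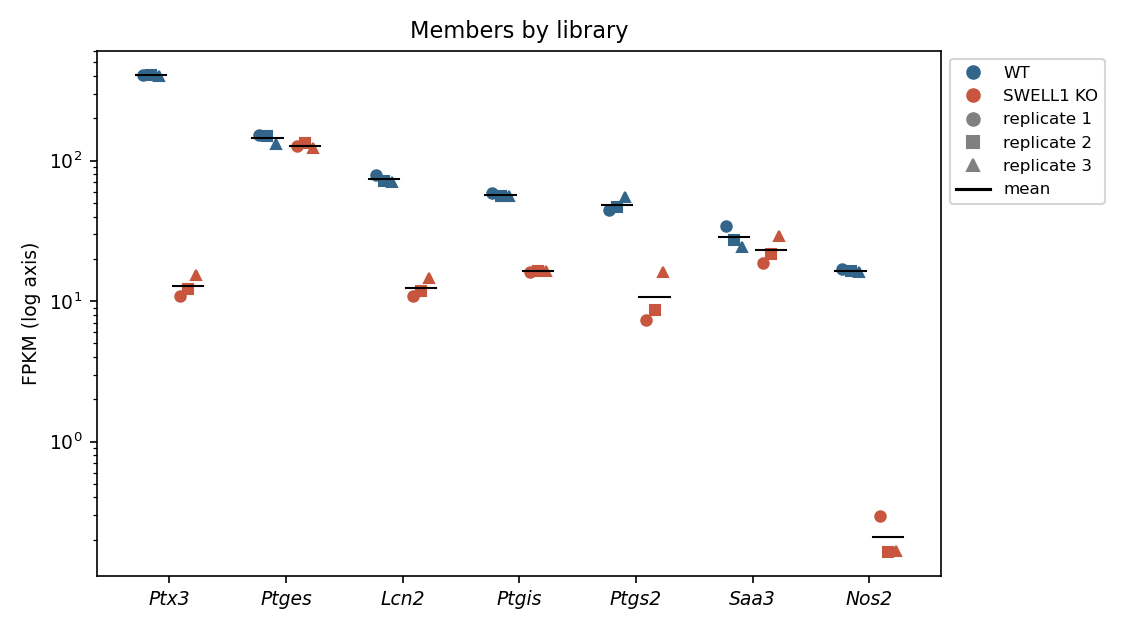
FPKM (log axis) of the 7 genes above 0 in each library, ordered by WT mean; colours give the group, symbols the replicate number and bars the mean of 3 libraries. Ptx3, Lcn2, Ptgis, Ptgs2 and Nos2 have KO points below all WT points, while Ptges and Saa3 overlap; Ptgs1 and Hpgd are not drawn.

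Of the 7 tested genes, 5 were past the threshold of the fit over all 10515 rows, all of them lower in KO (limma on log2(FPKM + 0.5), Benjamini-Hochberg adjusted p under 0.05), and Ptges and Saa3 were not. The same 5 were those whose groups did not overlap. In that fit 36.7% of all rows passed as lower, 28.5% as higher and 65.2% in either direction, while 71.8% of rows had groups that did not overlap, 40.3% with KO lower and 31.5% with KO higher. Since these genes were chosen with that contrast known, nothing is read from their count. By WT level the order was Ptx3, Ptges, Lcn2, Ptgis, Ptgs2, Saa3 and Nos2. No neighbours in that order overlapped, and Ptgis and Ptgs2 lay closest, at 56.1 to 58.3 and 44.5 to 54.9 FPKM. In KO the order was Ptges, Saa3, Ptgis, Ptx3, Lcn2, Ptgs2 and Nos2. There, the ranges of Ptx3, Lcn2 and Ptgs2 overlapped, and no other neighbours did.

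The spread within a group differed among the genes. The coefficient of variation of Ptgs2 over the KO libraries was 43.4%, more than that of 97.9% of the 7260 rows with a KO mean of at least 5 FPKM, whose median was 5.44%. Saa3 varied by 22.3%, Ptx3 by 17.3% and Lcn2 by 15.6% in KO. Ptgis varied by 0.784% in KO, and 1.71% of rows varied less. In WT, Saa3 varied most, by 18.5%, and Ptx3 least, by 1.44%, against a median of 5.19%. Of the 7 genes, 5 were highest in KO replicate 3 (Ptgs2, Ptgis, Lcn2, Saa3 and Ptx3), as were 33.8% of all tested rows. In WT, 6 were highest in replicate 1 and Ptgs2 in replicate 3, and 31.3% of tested rows were highest in replicate 1.

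Of the 9 genes, Ptges, Lcn2, Ptgis and Ptgs1 lie on chromosome 2, as the targeted gene does. Ptges and Lcn2 are within 3 Mb of Lrrc8a, at 0.652 and 2.15 Mb by lowest coordinate, and Ptgis and Ptgs1 are farther away. Within 3 Mb of Lrrc8a, 71 rows were tested, of which 28 fell and 8 rose, and their median log2 difference was -0.21, against -0.07 over all rows. Over all rows 36.7% fell and 28.5% rose. With median-ratio scaling 13 of the rows near Lrrc8a rose. Whether position bears on Ptges or Lcn2 was not tested.

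**Figure D2:**
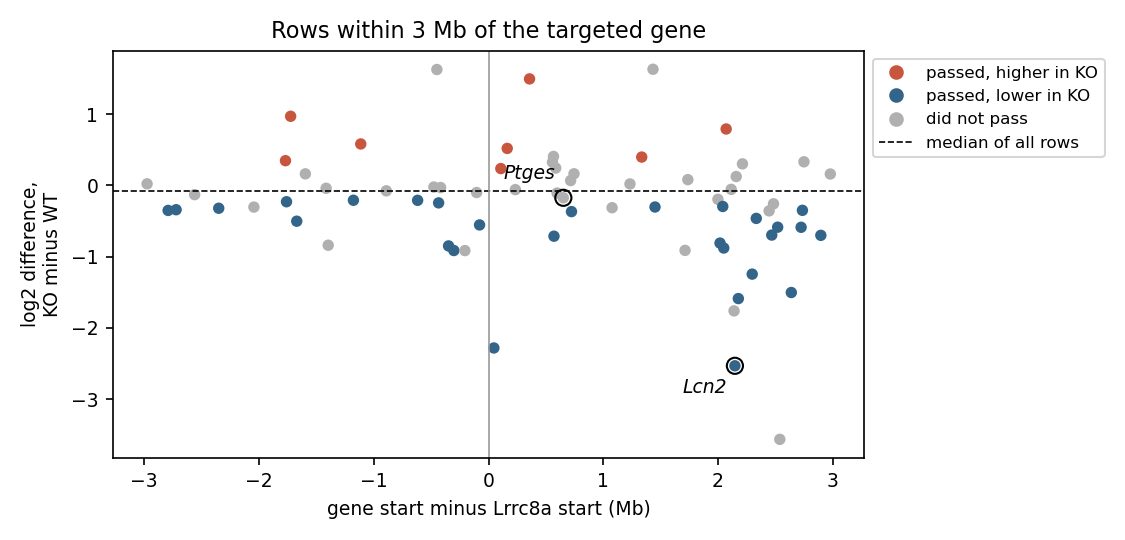
Log2 difference (KO minus WT, of FPKM + 0.5) of the 71 tested rows within 3 Mb of Lrrc8a, against the distance of their starts in Mb; colour gives the limma call and the dashed line the median of all rows, -0.07. Ptges, at -0.17, lies near the dashed line, and Lcn2, at -2.53, well under it.

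Of 24 other enzyme genes around the cyclooxygenase step, 11 were tested. Of these 4 fell by 1.36- to 10.5-fold, 2 rose and 5 did not pass, so 6 of 11 passed where 65.2% of all rows did. The median log2 difference was -0.12 (all rows -0.07). Pla2g4a, the cytosolic phospholipase that releases arachidonic acid, stood at 33.5, 37.4 and 38.4 FPKM in WT libraries against 25.6, 25.7 and 29.1 in KO libraries. The KO libraries lay under the WT libraries, and it fell 1.36-fold (adjusted p = 0.00329). The lysosomal phospholipase gene Pla2g15 fell 1.38-fold (adjusted p = 0.000237), and the carbonyl reductase gene Cbr1, whose enzyme can reduce prostaglandin E2, fell 1.64-fold from 21.5 ± 0.535 to 13.1 ± 0.36 FPKM (adjusted p = 4.47e-05). Akr1c18, an aldo-keto reductase of prostaglandin and progesterone metabolism, stood at 1.87, 1.91 and 3.25 FPKM in WT libraries against 0.213, 0.237 and 0.223 in KO libraries, a 10.5-fold fall (adjusted p = 0.000355).

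The other prostaglandin E synthase genes did not pass. Ptges2 was at 14.9 ± 1.89 and 16.4 ± 2.31 FPKM (adjusted p = 0.436) and Ptges3 at 78.2 ± 0.266 and 76.6 ± 1.12 FPKM (adjusted p = 0.4, but 0.00205 as higher with quantile normalization). Zadh2, a prostaglandin reductase gene, rose 1.48-fold from 3.96 ± 0.13 to 5.86 ± 0.491 FPKM (adjusted p = 0.0015). Akr1b3, an aldose reductase gene whose enzyme also makes prostaglandin F2alpha, was at 84.5, 77.6 and 84.2 FPKM in WT libraries against 103, 105 and 146 in KO libraries. It rose 1.44-fold (adjusted p = 0.0232), a call that was lost without WT replicate 1, 2 or 3 (adjusted p = 0.054, 0.0707 and 0.0546).

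Prostanoid receptor and carrier genes changed in both directions. Of 14 listed genes 7 were tested and all 7 passed, 4 higher and 3 lower in KO, where 65.2% of all rows passed, with a median log2 difference of 0.92; the median was 0.20 with a filter at a mean of 1 FPKM and 0.03 with no filter. Ptger4, the gene of the EP4 receptor for prostaglandin E2, was at 13.0, 14.3 and 11.9 FPKM in WT and was listed at 0 in all KO libraries (adjusted p = 1.52e-06). Ptger1, the gene of the EP1 receptor, was listed at 0 in all WT libraries and stood at 2.23, 2.01 and 1.62 FPKM in KO (adjusted p = 4.15e-05). An exact 0 is not a safe zero in this table. Among the 8117 rows with a library at 5 FPKM or more, 259 had a 0 beside a value above 0 within 1 group.

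Ptger4 overlaps Ttc33, not analysed here, on the other strand. Without strand, reads from the opposite strand at Ptger1 and Ptger4 could not be told apart from their own. Ptger2 was at most 0.0589 FPKM and Ptger3 at most 0.0269 FPKM in any library, and neither was tested. Of the receptor genes for other prostanoids, Ptgfr and Ptgir were tested and both rose. Ptgfr, for prostaglandin F2alpha, stood at 45.3, 47.5 and 40.7 FPKM in WT libraries against 86.0, 82.9 and 84.4 in KO libraries, 1.9-fold higher (adjusted p = 6.56e-05). Ptgir, for prostacyclin, stood at 1.51, 1.43 and 1.57 FPKM in WT libraries against 4.87, 5.25 and 4.4 in KO libraries, 3.21-fold higher (adjusted p = 4.04e-05). In both, every KO library lay above every WT library.

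Abcc4, which encodes an exporter that carries prostaglandins among other substrates, rose 4.02-fold from 1.45 ± 0.0393 to 5.83 ± 0.485 FPKM (adjusted p = 1.71e-05). Slco3a1, an organic anion transporter gene, fell 1.49-fold (adjusted p = 0.00248). Ptgfrn, an inhibitor of the prostaglandin F2alpha receptor, fell 5.13-fold from 2.54 ± 0.0516 to 0.494 ± 0.0848 FPKM (adjusted p = 4.84e-05). The uptake carrier gene Slco2a1 was at 0.0515 to 0.0944 FPKM in WT and 0.038 to 0.0642 in KO and was not tested.

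Of 30 listed genes around NOS2, which make its cofactor, supply arginine or act on nitric oxide, 18 were tested: 6 fell, 5 rose and 7 did not pass. The 11 of 18 that passed are close to the background of 65.2%. The list had a median log2 difference of -0.08 that became 0.13 under quantile normalization, where 9 rose. Gch1, the rate-limiting enzyme gene of tetrahydrobiopterin synthesis, stood at 8.1, 5.33 and 5.76 FPKM in WT libraries against 0.648, 0.845 and 0.935 in KO libraries. All KO libraries were far lower, a 7.91-fold fall (adjusted p = 8.89e-05). Gchfr, whose protein restrains GCH1, stood at 28.4, 25.5 and 22.4 FPKM in WT libraries against 146, 156 and 132 in KO libraries, a 5.69-fold rise (adjusted p = 1.22e-05). The later cofactor genes Pts and Qdpr rose 1.77-fold (adjusted p = 0.00278) and 1.69-fold (adjusted p = 3.91e-05).

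The arginine transporter genes Slc7a1 and Slc7a2 fell 3.01-fold (adjusted p = 8.65e-05) and 2.56-fold (adjusted p = 0.00119). Slc7a2 went from 4.13 ± 0.27 to 1.61 ± 0.442 FPKM. Ass1, which recycles citrulline to arginine, was at 33.0 ± 1.26 and 33.5 ± 0.301 FPKM (adjusted p = 0.668), and passed as higher with quantile normalization alone (adjusted p = 0.00806). Arg1 was at 0 in WT libraries against 0.0761, 0.0281 and 0 FPKM in KO libraries and was not tested. Ddah1, whose enzyme breaks down an inhibitor of nitric oxide synthases, stood at 11.2, 11.3 and 10.5 FPKM in WT libraries against 1.09, 0.548 and 0.432 in KO libraries (16-fold lower, adjusted p = 4.5e-05). Ddah2, which encodes an enzyme of the same family and had the higher level, rose 1.21-fold from 62.3 ± 0.543 to 75.1 ± 2.2 FPKM (adjusted p = 0.00095). Adh5, the gene of S-nitrosoglutathione reductase, rose 1.49-fold (adjusted p = 0.000116).

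Among other acute-phase and pentraxin genes there was no single direction. Of 38 listed, 14 were tested: 6 fell, 4 rose and 4 did not pass, and 10 of 14 is close to the 65.2% of all rows that passed. The list had a median log2 difference of -0.04 that turned to 0.03 with median-ratio scaling, 0.16 with quantile normalization, 0.02 with no filter and 0.07 without WT replicate 1. The liver pentraxin genes Crp and Apcs were listed at 0 in every library. Timp1, a protease inhibitor gene induced by interleukin 6 family cytokines, fell 7.13-fold from 806 ± 44.7 to 113 ± 6.57 FPKM (adjusted p = 2.14e-06). Lbp, the lipopolysaccharide binding protein gene, fell 2.45-fold from 106 ± 21.9 to 43.4 ± 3.68 FPKM (adjusted p = 0.000976). Cp, the ferroxidase gene ceruloplasmin, rose 2.66-fold from 17.2 ± 1.51 to 45.8 ± 1.72 FPKM (adjusted p = 2.71e-05).

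Partners of the 3 secreted proteins were in this list. Tnfaip6, whose protein works with PTX3 in hyaluronan-rich matrix, stood at 26.3, 26.9 and 25.8 FPKM in WT libraries against 59.2, 66.1 and 59.2 in KO libraries. It rose 2.34-fold (adjusted p = 1.7e-05), the opposite direction to Ptx3. Has2, a hyaluronan synthase gene, stood at 25.5, 27.3 and 25.5 FPKM in WT libraries against 8.91, 9.89 and 9.58 in KO libraries, 2.76-fold lower (adjusted p = 1.05e-05). Mmp9, whose protein can bind LCN2, stood at 6.37, 5.61 and 6.7 FPKM in WT libraries against 25.2, 23.7 and 19.4 in KO libraries, 3.65-fold higher (adjusted p = 5.43e-05). Slc22a17, the gene of a described LCN2 receptor, fell 3.35-fold from 2.44 ± 1.04 to 0.729 ± 0.0734 FPKM (adjusted p = 0.00601). Of the paralogs of Saa3, with which reads may be shared, Saa1 rose from 0.128, 0.115 and 0.211 FPKM to 0.859, 0.935 and 0.843 FPKM (adjusted p = 0.00064), and Saa2 was at 0, 0.341 and 0.209 FPKM in WT and 0.453, 0.336 and 0.238 FPKM in KO, untested.

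**Figure D3:**
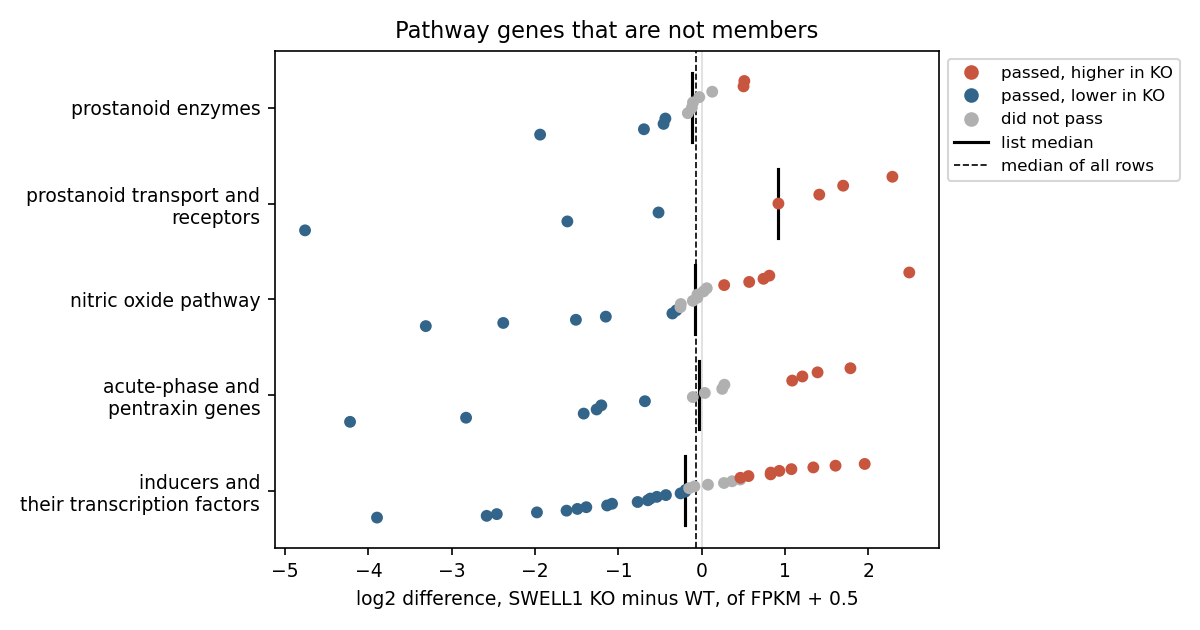
Log2 difference (KO minus WT, of FPKM + 0.5) of each tested gene of 5 lists that hold none of the 9 genes; colour gives the limma call, short bars the list medians and the dashed line the median of all rows. Points for Ptger1, Ptger4 and Mt2, which were listed at 0 in a whole group, depend on the pseudocount; all 7 tested receptor and carrier genes passed, in both directions.

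Cytokines, receptors and transcription factors that are known to induce these genes changed widely. Their list also holds genes that restrain such induction, such as Socs3, so its counts are not of inducers alone. Of 43 listed genes 32 were tested: 17 fell, 9 rose and 6 did not pass (median log2 difference -0.20), so 26 of 32 passed where 65.2% of all rows did. The cytokine genes Il1b and Osm were listed at 0 in every library and Tnf was at most 0.0402 FPKM. Il6 stood at 13.3, 13.8 and 11.9 FPKM in WT libraries against 0.434, 0.241 and 0.567 in KO libraries, 31.4-fold lower (adjusted p = 9.45e-06). The KO libraries were all near 0.

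Of 4 receptor chain genes for interleukin 6 family cytokines, 3 fell and 1 rose. Il6st, the shared chain gp130, stood at 595, 525 and 573 FPKM in WT libraries against 142, 146 and 140 in KO libraries, 3.96-fold lower (adjusted p = 4.01e-06). Lifr and Osmr fell 7.39-fold (adjusted p = 1.83e-05) and 2.65-fold (adjusted p = 0.000196), the kinase genes Jak2 and Jak1 2.9-fold and 1.54-fold (adjusted p = 7.12e-05 and 4.37e-05), and Stat3 1.71-fold (adjusted p = 0.000124). Il6ra, the chain specific to interleukin 6, rose 4.78-fold from 1.6 ± 0.271 to 7.63 ± 1.03 FPKM (adjusted p = 6.56e-05). Socs3, a feedback inhibitor and STAT3 target, stood at 154, 148 and 143 FPKM in WT libraries against 28, 25.6 and 25.9 in KO libraries, 5.59-fold lower (adjusted p = 1.86e-06).

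Cebpd, which encodes a C/EBP factor of the acute-phase response, stood at 140, 149 and 148 FPKM in WT libraries against 41.9, 43.8 and 56.6 in KO libraries. It fell 3.08-fold (adjusted p = 8.43e-05), and KO replicate 3 was the highest KO library, as in 33.8% of all tested rows. Cebpa was at most 0.157 FPKM, and Cebpb and Nfkbiz were not analysed here. Of the NF-kappaB subunit genes, Rela fell 1.15-fold (adjusted p = 0.00424, but 0.219 with quantile normalization), Relb 1.48-fold (adjusted p = 0.000585), and Nfkb1 was at 24.2, 19.7 and 25.2 FPKM in WT libraries against 26.4, 23.7 and 22.5 in KO libraries (adjusted p = 0.578). In the annotation Cp, Timp1, Myd88, Stat3, Jak1 and Cebpd each overlap another protein-coding gene, whose reads could not be told apart without strand. The same holds for Plin4, Csf1r, Nos3 and Cygb, whose values are given elsewhere here.

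The toll-like receptor genes Tlr2 and Tlr4, for bacterial products, were higher. Tlr2 rose 3.27-fold from 4.41 ± 0.245 to 14.4 ± 0.823 FPKM (adjusted p = 1.14e-05), and Tlr4 1.98-fold from 6.3 ± 0.266 to 12.5 ± 0.967 FPKM (adjusted p = 9.65e-05). Myd88, the adaptor of these receptors, fell 2.25-fold (adjusted p = 9.43e-06). Il1r1, the interleukin 1 receptor gene, fell 1.35-fold from 46.5 ± 1.69 to 34.4 ± 1.19 FPKM (adjusted p = 0.000388). Ifngr1, a chain of the interferon gamma receptor, rose 2.59-fold (adjusted p = 1.15e-05).

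**Figure D4:**
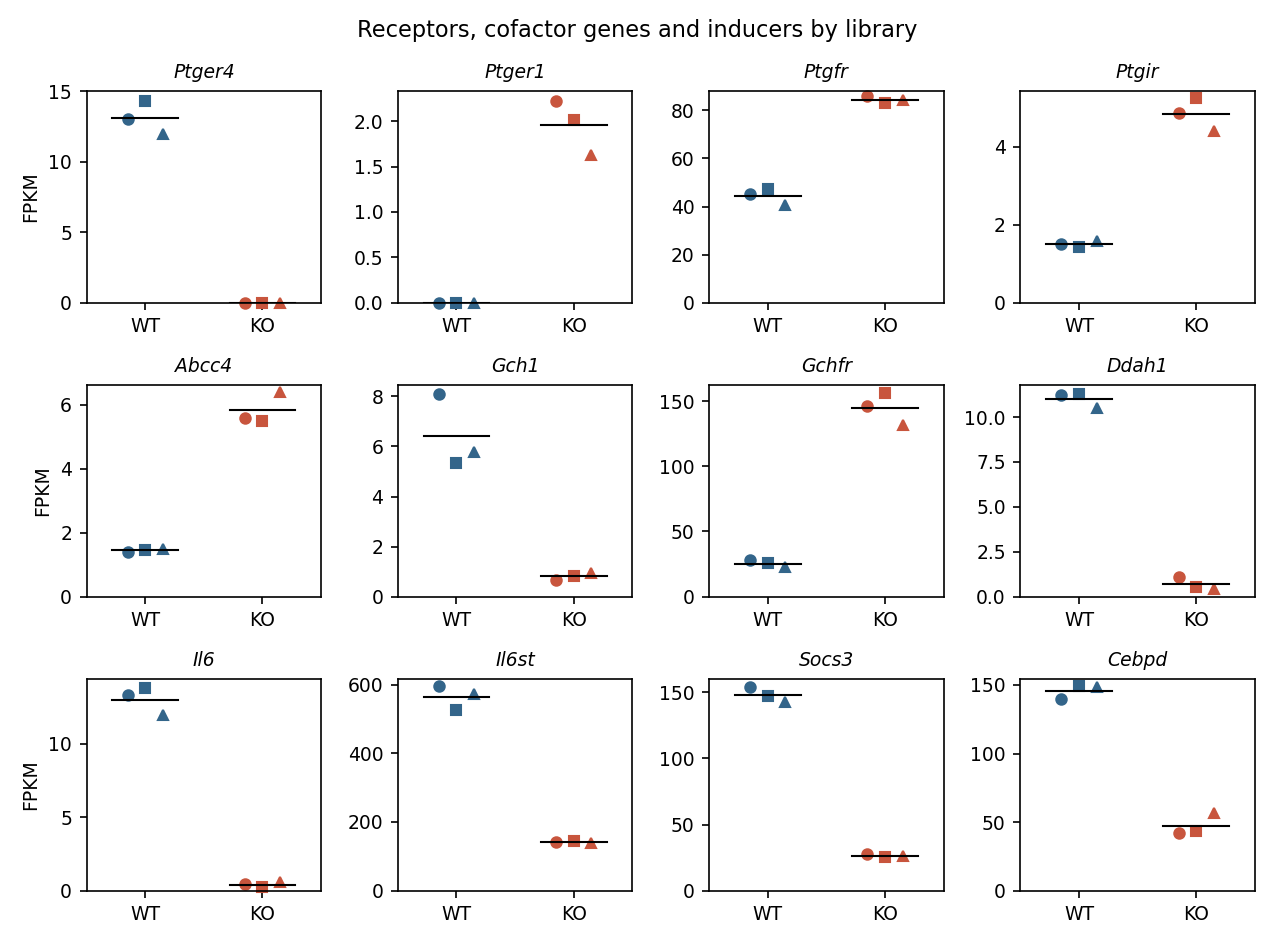
FPKM by library (linear axes from 0) of prostanoid receptor and exporter genes (Ptger4, Ptger1, Ptgfr, Ptgir, Abcc4), nitric oxide cofactor and inhibitor-clearing genes (Gch1, Gchfr, Ddah1) and interleukin 6 pathway genes with Cebpd; colours give the group, symbols the replicate number as in the plot of members, and bars the mean of 3. No gene drawn has overlapping groups; Ptger4 is listed at 0 in KO and Ptger1 at 0 in WT.

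The rows most like each tested gene were found by the root mean square difference of log2(FPKM + 0.5), centred over the 6 libraries. For Ptgs2 the nearest was Nr4a1 (0.13). Nr4a1, an immediate early gene, stood at 120, 123 and 129 FPKM in WT libraries against 17.7, 22.7 and 49.7 in KO libraries, with the same order of libraries as Ptgs2 in both groups. For Ptgis they were the matrix genes Fbln1 and Nid1, for Lcn2 Tbx18 and Hk2, for Nos2 Ankrd37 (listed at 0 in all KO libraries) and Eml2, and for Saa3 Hspa4 and Lpl. For Ptx3 they were Fam110c and Acta2, at 0.07 and 0.11. For Ptges they were the predicted genes Gm6206 and Gm12174. With 2 groups of 3 libraries such likeness rests mostly on the group difference.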

How the data were processed

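RNA of 6 libraries was sequenced on an Illumina HiSeq, per the series' design text. The authors deposited 1 table with a value per row and library; the unit is FPKM by inference, since no header names it, and the submitters' processing notes name TopHat, Cufflinks and the build GRCm38. An FPKM value counts fragments relative to transcript length and to the library's mapped total. Annotation release, settings and strand of the library kit: not given in the sources used here.

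Values were used as deposited. Of the rows, 10515 reached a mean of 0.5 FPKM over all libraries and were tested by limma (version 3.58.1, R 4.3.3) after taking log2(FPKM + 0.5) (mean-variance trend, two-sided, Benjamini-Hochberg over all rows, threshold 0.05); this scale understates changes of low genes. The step was also run on simulated data, with no outcome given here, so that run does not check the calls in these data. Fold changes are ratios of means. Depth was estimated from the lowest values of 976 single-transcript genes of at least 2500 bases. Positions are from GENCODE M21, a GRCm38 annotation. Tables were read with Python 3.11.15 and pandas 2.3.3. Each row given for a gene held that gene alone, apart from the Lrrc8a row.

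The 9 genes and the lists were chosen with earlier results of these data known. Named were the 9 genes, up to 4 largest increases and decreases per list with groups that did not overlap and no library at 0, and partners listed by role; Ddah2, Osmr, Jak1, Jak2, Stat3, Myd88, Rela, Relb, Nfkb1, Crp, Apcs, Il1b, Osm, Tnf and Cebpa were added after their values were seen. A few rows that these rules select are not reported here. Alternatives were pseudocounts of 0.1 and 1, no filter and a mean of at least 1, median-ratio and quantile scaling, a robust fit, a replicate block and leaving out each library.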

Additional observations from a re-analysis of the deposited data

How the results depend on the processing

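Pseudocounts, filters, scalings, the robust fit, the replicate block and leaving out each library were run on 21 results: 14 counts of rows higher or lower and the log2 differences of the 7 tested genes. Of these values 282 stayed within 1.5 times the count, or within 1 SD for a log2 difference, and 12 moved. That SD is the spread of log2 values among the libraries of a group, pooled over both groups. With a pseudocount of 0.1 the differences were -1.80 for Ptgis and -5.77 for Nos2, and with 1 they were -1.74 and -3.86. With median-ratio scaling Ptgis was at -1.71 and 13 rows near Lrrc8a were higher. With quantile normalization Ptgis was at -1.62, Ptges at 0.029, and 9 nitric oxide pathway rows were higher; the cause was not tested. Ass1 and Ptges3 then also passed as higher (adjusted p = 0.00806 and 0.00205), and Rela no longer passed as lower (adjusted p = 0.219). When 1 library was left out, 1 to 2 prostanoid enzymes were higher, through the lost call of Akr1b3. The same fits gave 2716 to 2870 rows higher and 3553 to 3706 lower.

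Same-numbered WT and KO libraries did not deviate together (r across rows 0.00, 0.01 and -0.09), and no WT library correlated best with its own number. These values show no effect shared by number, but cannot tell whether such libraries had a common culture or preparation. With the replicate block 2846 rows were higher and 3688 lower, against 2998 and 3862, and no list count moved by over 1.5 times. Of the tested pathway genes named, Akr1b3, Ass1, Ptges3 and Rela alone changed their side of the threshold in these fits, which were not run on the cell type markers; Ptger1 and Saa1 were not tested with a filter at a mean of 1, nor Saa1 without any 1 KO library, where its mean lay under the filter. Depth, at 17.1 to 26.1 M fragments, limits what low values can show.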

Other observations

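Several genes of these pathways lay under the filter on low values and were not tested; their values are given without a call. Nos1, the neuronal nitric oxide synthase gene, stood at 0.0965, 0.0944 and 0.0994 FPKM in WT libraries against 0.883, 1.03 and 0.647 in KO libraries, where Nos2 was at 0.209 ± 0.0753. Nos3, the endothelial one, was at 0.482, 0.194 and 0.185 FPKM in WT libraries against 0, 0 and 0.485 in KO libraries. Gucy1a2, a subunit of the nitric oxide receptor guanylate cyclase, was at 0.0108, 0.039 and 0.0447 FPKM in WT libraries against 0.437, 0.352 and 0.324 in KO libraries, while Gucy1b3 was at 0 in all libraries. Ptgds, a prostaglandin D synthase gene, was at 0.117, 0 and 0 FPKM in WT libraries against 0.681, 1.07 and 0.553 in KO libraries. Tbxa2r, the thromboxane receptor gene, was at 0 in WT libraries against 0.0935, 0.161 and 0.0977 FPKM in KO libraries. Untested genes of the same lists that were lower in KO included Pla2g2d and Cygb. Pla2g2d was at 0.29, 0.391 and 0.28 FPKM in WT libraries against 0.234, 0.249 and 0.0779 in KO libraries. Cygb was at 0.524, 0.623 and 0.481 FPKM in WT libraries against 0.257, 0.154 and 0 in KO libraries. These genes were chosen after their values were seen.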
